A study of Homo sapiens with 9 samples.

Results

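Antiviral effector genes encode the proteins that act on viruses directly once a cell has answered to interferon. The 10 genes described here (MX1, MX2, IFITM1, IFITM2, IFITM3, BST2, RSAD2, IFI44, IFI44L and IFI6) were picked by name out of the 26485 genes of the count table, with their high level in the addback libraries already known. RNA was sequenced from HEK293 cells, a human embryonic kidney line of neural and adrenal character, in 3 groups of 3 libraries. UBE3D, which encodes a ubiquitin ligase, was disrupted by CRISPR/Cas9 in the KO cells, the addback cells are KO cells given UBE3D again, and the WT cells carry UBE3D undisturbed. All were grown in the same serum-containing medium, and no interferon, virus or other stimulus is named in the labels. How UBE3D was returned to the cells, and whether KO and addback cells stem from 1 clone, is not given in the sources used here. None of the 9 libraries is from KO cells given a vector without UBE3D, so an effect of UBE3D and an effect of the way it was returned cannot be told apart. The labels call the samples pooled and name no separate cultures, so every p-value below measures the spread between these libraries only.

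Type I and type III interferons bind receptors at the cell surface and switch on JAK kinases. These lead to a transcription factor complex that includes IRF9 and binds the interferon-stimulated response element (ISRE) near the start of many genes. Type II interferon acts through a different element called GAS. The products stop viruses at different steps: IFITM proteins hinder fusion of the virus with the cell membrane, MX proteins trap incoming capsids and nucleoproteins, RSAD2 and others act on replication, and BST2 holds finished particles on the cell surface.

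The start regions of these genes carry the sequence features by which the family is usually recognised, so 6 of them are shown before the values. RefSeq promoters (GRCh38.p14) were available for 8 of the 10 members, namely all but MX2 and IFITM2. MX1 had 3 RefSeq starts, and RSAD2 and IFI44 had 2 each. For these the start nearest the annotated edge of the gene was used, and matches at the other starts are not given. Each line gives the 250 bases before the transcript start on the gene's strand, 5′ to 3′, and capitals mark every match to the ISRE core GAAANNGAAA or its reverse complement TTTCNNTTTC. IFI6 lies at chr1:27672193-27672442 (minus strand), IFI44L at chr1:78620198-78620447 (plus), BST2 at chr19:17405631-17405880 (minus), IFITM1 at chr11:313790-314039 (plus), IFITM3 at chr11:320861-321110 (minus) and MX1 at chr21:41420308-41420557 (plus).
IFI6: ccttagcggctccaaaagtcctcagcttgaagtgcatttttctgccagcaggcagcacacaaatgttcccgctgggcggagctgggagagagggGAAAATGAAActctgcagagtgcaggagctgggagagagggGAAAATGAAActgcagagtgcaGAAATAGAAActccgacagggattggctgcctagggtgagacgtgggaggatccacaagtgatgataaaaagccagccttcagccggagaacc
IFI44L: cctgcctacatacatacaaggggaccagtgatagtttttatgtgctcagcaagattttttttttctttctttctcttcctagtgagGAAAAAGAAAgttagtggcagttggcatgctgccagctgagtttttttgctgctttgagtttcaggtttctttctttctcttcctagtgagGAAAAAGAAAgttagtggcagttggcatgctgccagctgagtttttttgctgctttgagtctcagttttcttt
BST2: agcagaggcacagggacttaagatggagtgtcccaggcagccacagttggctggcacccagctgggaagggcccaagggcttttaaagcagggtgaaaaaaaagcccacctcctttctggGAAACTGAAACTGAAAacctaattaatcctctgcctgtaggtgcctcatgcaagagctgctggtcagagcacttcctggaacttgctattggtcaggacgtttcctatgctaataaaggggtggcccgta
IFITM1: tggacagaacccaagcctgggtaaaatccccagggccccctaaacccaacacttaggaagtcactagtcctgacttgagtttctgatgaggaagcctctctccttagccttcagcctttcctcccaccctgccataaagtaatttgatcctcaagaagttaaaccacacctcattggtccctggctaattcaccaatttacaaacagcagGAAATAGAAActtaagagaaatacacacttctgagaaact
IFITM3: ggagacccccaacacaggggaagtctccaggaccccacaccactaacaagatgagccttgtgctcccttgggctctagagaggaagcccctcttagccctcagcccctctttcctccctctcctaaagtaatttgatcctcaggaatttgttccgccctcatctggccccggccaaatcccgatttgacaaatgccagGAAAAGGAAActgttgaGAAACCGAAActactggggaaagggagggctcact
MX1: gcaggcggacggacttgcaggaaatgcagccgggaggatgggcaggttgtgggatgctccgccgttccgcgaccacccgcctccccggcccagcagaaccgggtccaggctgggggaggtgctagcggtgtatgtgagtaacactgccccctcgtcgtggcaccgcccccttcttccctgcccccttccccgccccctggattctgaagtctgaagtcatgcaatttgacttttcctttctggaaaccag

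The ISRE core stood in this window in 7 of the 8 members, against 3.02% of all 35116 RefSeq promoters searched in the same way. IFI6 held 3 matches, from base -156, -115 and -93 relative to the start, and the first and second of them lie in copies of a 29-base exact repeat set 41 bases apart. In IFI44L both matches, from base -164 and -73, lie in copies of an exact repeat of 85 bases set 91 bases apart. The matches of BST2, from -130 and -124, overlap each other. IFITM3 had matches from -52 and -35 and IFITM1 1 from -40, and their windows were 69.3% identical over 238 aligned bases. RSAD2 and IFI44 each had 1 match on the opposite strand, from -145 and -18. MX1 had none in the 250 bases shown, but a match runs from base 12 to 21 after its start, and IFITM1 has a further one from base -6 to 4. A window of 300 bases that takes in the 50 bases after the start holds the core in 3.57% of promoters. The GAS letters TTCNNNGAA were found in BST2 (from -136 and -58) and IFITM1 (from -12), 2 of the 8 members, against 6.57% of all promoters, and the BST2 match from -136 overlaps its ISRE core. A match describes the letters only, and binding was not measured.

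**Figure D1:**
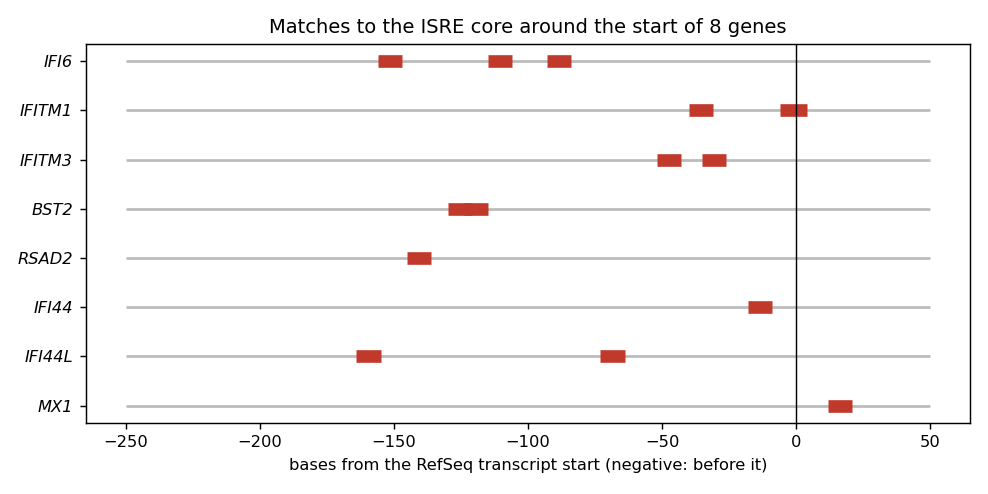
Position of matches to the ISRE core (red blocks) from 250 bases before to 50 bases after the RefSeq transcript start of 8 genes (grey lines), with the start at 0. Every gene but MX1 has a match before the start used, MX1 has its match from base 12 after it, and IFI6 has 3. Other RefSeq starts of MX1, RSAD2 and IFI44 are not shown.

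Levels are given as CPM (counts scaled to a common library size, taken from genes that hold little background, as explained next), and as mean ± SD of 3 libraries. UBE3D itself stood at 3134 ± 331 CPM in addback cells, 14.5 ± 1.28 in KO cells and 22.4 ± 3.47 in WT cells, so RNA of the gene was still present in KO cells, and addback exceeded WT by a log2 fold of 7.14 ± 0.14 (standard error). Library totals ran from 23088295 to 37508780 counts. Among 561 genes of organs unrelated to these cells (such as odorant receptors and keratin-associated proteins), 96.1% to 96.8% had a count in each addback and WT library, against 13.9% to 17.5% in each KO library. Spread over coding sequence, such reads would make up 2.80%, 11.7% and 11.7% of addback libraries 1 to 3 and 3.02%, 8.29% and 14.7% of WT libraries 1 to 3, and they were estimated as 0 in KO libraries. This estimated background is given beside the members below. Of 12 markers of the neural and adrenal lineage, 8 reached 1 CPM in KO cells (among them NEFL, NEFM, INA and GATA3), where no such background was estimated. Of 12 blood and immune cell markers, CD14 did so, and the 12 together summed to 23 to 84.6 CPM in addback, 4.49 to 5.77 in KO and 20.9 to 108 in WT libraries.

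All 10 members had higher levels in addback cells than in KO cells, and in each the lowest addback library lay above the highest KO library. Of all 21994 tested genes 60.2% did so as well. Against WT cells the same held for 9 members and for 11.0% of all tested genes, and MX1 was the exception. Between libraries of the same number, MX1 too was higher in addback than in WT in all 3 pairs. Per kilobase of exon, all members together summed to 1108 ± 258 CPM in addback, 47.0 ± 2.07 in KO and 60.0 ± 8.29 in WT cells. In bulk RNA, more RNA in every cell and more cells that hold the RNA cannot be told apart. Since the genes were chosen for their addback level, the values of both addback comparisons are a description and carry no test.

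**Figure D2:**
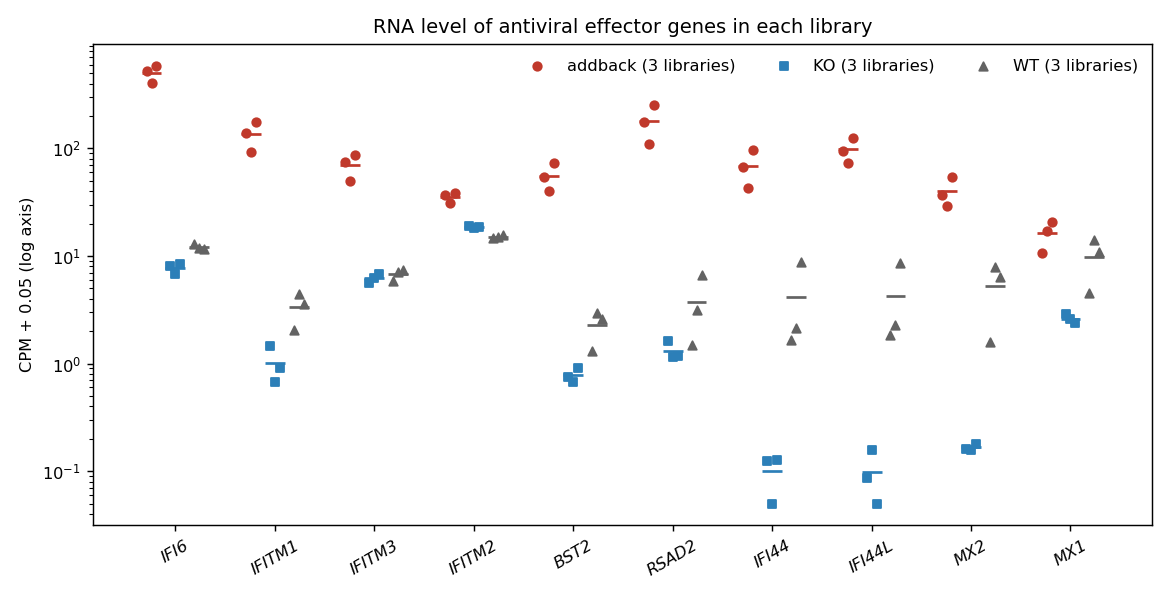
CPM of each gene (log axis, 0.05 added) in each of 9 libraries, with addback (red circles), KO (blue squares) and WT (grey triangles) side by side and the group mean as a bar. Every gene is higher in all 3 addback libraries than in all 3 KO libraries, and IFI44 and IFI44L have KO libraries with a count of 0.

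IFI6 (chromosome 1, 27666061-27672213, minus strand, hg38) encodes a small hydrophobic membrane protein that hinders the replication of flaviviruses at the endoplasmic reticulum. It had 526, 403 and 584 CPM in addback libraries 1 to 3, 8.07, 6.82 and 8.37 in KO libraries and 12.8, 11.7 and 11.6 in WT libraries. The 3 groups did not overlap, with addback highest and KO lowest. The log2 fold was 6.01 ± 0.16 (standard error) over KO and 5.39 ± 0.15 over WT. IFI6 was the most abundant member per kilobase of exon in addback cells, at 586 ± 108 CPM per kilobase, and made up 53.3% ± 2.83 of the members' summed level there, against 19.2% ± 1.22 in KO cells and 23.7% ± 4.79 in WT cells (SD, n = 3).

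The 3 IFITM genes lie side by side on chromosome 11 and encode membrane proteins that differ in where they sit: IFITM1 mostly at the cell surface, IFITM2 and IFITM3 in endosomes. IFITM1 (313991-315272, plus strand) had 138, 92.5 and 174 CPM in addback, 1.41, 0.620 and 0.858 in KO and 2.02, 4.40 and 3.56 in WT libraries. Its log2 fold was 7.14 ± 0.38 over KO and 5.33 ± 0.33 over WT. IFITM3 (319673-320914, minus strand), 4401 bases away, had 73.9, 49.7 and 87.3 CPM in addback, 5.54, 6.24 and 6.81 in KO and 5.84, 7.01 and 7.43 in WT libraries, so that KO and WT overlapped while addback stood apart. Its folds were 3.50 ± 0.21 against KO and 3.38 ± 0.21 against WT. IFITM2 (308107-309410, plus strand), 4581 bases from IFITM1 on the other side, had the smallest addback fold over KO of all members. It had 36.6, 31.3 and 38.6 CPM in addback, 19.0, 18.1 and 18.7 in KO and 14.5, 14.8 and 15.7 in WT libraries, with folds of 0.93 ± 0.09 against KO and 1.25 ± 0.09 against WT.

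Per kilobase of exon the make-up of the trio differed between the groups. IFITM1 held 54.5%, 52.4% and 56.9% of the trio's level in addback libraries, 5.44%, 2.47% and 3.23% in KO libraries and 8.99%, 16.6% and 13.2% in WT libraries. IFITM2 held 14.2%, 17.4% and 12.4% in addback, 71.7%, 70.9% and 69.2% in KO and 63.2%, 54.9% and 57.1% in WT libraries. Thus IFITM2 led in every KO and WT library and IFITM1 in every addback library, while the share of IFITM3 lay between 22.9% and 31.3% in all 9. The coding sequences of IFITM2 and IFITM3 are 93.9% identical, those of IFITM1 and IFITM3 87.5% with an identical run of 141 bases, and those of IFITM1 and IFITM2 85.4%. How the authors' counting treated reads that fit more than 1 of them is not given in the sources used here, so the split between the 3 genes is uncertain. Of 3 relatives (IFITM5, IFITM10 and the pseudogene IFITM4P), edgeR called IFITM5 and IFITM4P higher in addback against KO (4.46 ± 1.03 and 2.28 ± 0.66) and lower in KO against WT (-4.40 ± 1.03 and -2.21 ± 0.66, edgeR adjusted p = 0.00599 and 0.0174), and none in addback against WT. Of all tested genes, 49.2% were called higher in addback against KO and 51.7% lower in KO against WT. The estimated background of IFITM5 was 184% of its counts in addback and 166% in WT. The estimate scales with coding length, so for the pseudogene IFITM4P it is 0 by construction and says nothing of its background. The part of background in these calls was not tested. In addback against WT the number with an unadjusted p under 0.05 was 0 of 3 as well, and so was the number called by DESeq2.

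BST2 (chromosome 19, 17402939-17405648, minus strand), also called tetherin, ties budding viruses to the cell that made them. It had 53.7, 39.7 and 72.6 CPM in addback, 0.707, 0.620 and 0.858 in KO and 1.25, 2.90 and 2.53 in WT libraries, with no overlap between any 2 groups. Its log2 fold was 6.22 ± 0.38 over KO and 4.63 ± 0.34 over WT. BISPR, a long noncoding RNA gene on the opposite strand whose start lies 38 bases from that of BST2, had 9.07 ± 2.97 CPM in addback, 0.356 ± 0.135 in KO and 0.308 ± 0.0552 in WT cells. MVB12A has the same annotated start and strand as BISPR, so reads of these 2 can be hard to assign, and it stood at 51.5 ± 2.45, 39.9 ± 2.14 and 52.1 ± 2.33 CPM in addback, KO and WT cells.

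RSAD2 (chromosome 2, 6877665-6898232, plus strand) encodes viperin, a radical SAM enzyme that turns CTP into a chain terminator of viral RNA polymerases. It had 176, 110 and 251 CPM in addback, 1.56, 1.09 and 1.12 in KO and 1.45, 3.07 and 6.58 in WT libraries. KO and WT overlapped, and addback lay far above both, with log2 folds of 7.17 ± 0.52 against KO and 5.67 ± 0.46 against WT (6.27 without WT library 3). CMPK2, which makes the nucleotide that viperin uses, is the next gene, 11030 bases away on the opposite strand. It had 153 ± 38 CPM in addback, 4.54 ± 0.0985 in KO and 7.27 ± 1.77 in WT cells.

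IFI44L and IFI44 lie in a row on chromosome 1 (78620382-78646145 and 78649792-78664078, both plus strand), 3647 bases apart, and encode related cytoplasmic proteins whose antiviral action is less well worked out. Their coding sequences are 67.0% identical, with no identical run over 13 bases. IFI44L had 95.1, 73.1 and 126 CPM in addback libraries and 1.79, 2.24 and 8.49 in WT libraries, while KO libraries held 1, 3 and 0 counts. IFI44 had 67.5, 43.2 and 95.6 CPM in addback and 1.59, 2.10 and 8.67 in WT libraries, with 2, 0 and 3 counts in KO libraries. The folds over KO were the highest of the members, 11.01 ± 0.89 for IFI44L and 10.21 ± 0.98 for IFI44, but they rest on 4 and 5 KO counts in all. Without KO library 2 the fold of IFI44L over KO was 12.30, and without KO library 3 it was 10.30. Against WT the folds were 4.62 ± 0.53 and 4.11 ± 0.61, and without WT library 3, where both genes were highest among WT libraries, they were 5.59 and 5.21.

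MX1 and MX2 are dynamin-like GTPases that form rings around viral components, MX1 mainly against influenza and other RNA viruses and MX2 against HIV-1 and herpesviruses. MX2 (chromosome 21, 41362023-41408942, plus strand) had 36.6, 28.8 and 54.4 CPM in addback, 0.112, 0.109 and 0.130 in KO and 1.55, 7.79 and 6.31 in WT libraries. Its log2 fold was 8.35 ± 0.72 over KO and 2.94 ± 0.50 over WT. MX1 (41420558-41459214, plus strand) starts 11616 bases after the end of MX2 and is the member whose addback and WT libraries overlapped. It had 10.7, 17.1 and 20.8 CPM in addback, 2.83, 2.52 and 2.31 in KO and 4.52, 14.1 and 10.8 in WT libraries. The fold of MX1 was 2.66 ± 0.43 against KO and 0.72 ± 0.40 against WT, and the estimated background was 32.4% of its addback counts and 48.3% of its WT counts. The coding sequences of MX1 and MX2 are 71.2% identical.

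Ordered by level per kilobase of exon in addback cells, IFI6 was followed by IFITM1 at 188 ± 57.0, IFITM3 at 105 ± 28.5, BST2 at 54.3 ± 16.2 and RSAD2 at 51.1 ± 20.1 CPM per kilobase. IFITM2 came next at 48.6 ± 5.15, then IFI44 at 39.8 ± 15.2, IFI44L at 16.7 ± 4.54, MX2 at 13.5 ± 4.43 and MX1 at 4.42 ± 1.39. The library ranges of neighbours overlapped between IFITM1 and IFITM3, along the run BST2, RSAD2, IFITM2 and IFI44, and between IFI44L and MX2, so the order there is not clear of the spread between libraries. Within single libraries IFITM1 exceeded IFITM3, and IFI44L exceeded MX2, in 3 of 3, while each step of the run from BST2 to IFI44 held in 2 of 3. IFI6 was above IFITM1, IFITM3 above BST2, IFI44 above IFI44L and MX2 above MX1 without overlap. In KO cells the order was another: IFITM2 made up 54.3% ± 1.5 of the members' summed level, against 4.48% ± 0.608 in addback and 34.5% ± 3.90 in WT cells.

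Most members ranked the addback libraries alike. Library 3 was the highest for all 10, and in 9 of the 10 library 1 came next and library 2 was lowest, MX1 again being the exception. Relative to the mean of the 3 addback libraries, the median member stood at 0.982 in library 1, 0.720 in library 2 and 1.29 in library 3. UBE3D had another order, at 3349, 3301 and 2752 CPM in libraries 1 to 3, with its lowest level in library 3. Estimated background made up 2.80% of library 1 and 11.7% of libraries 2 and 3, so libraries 2 and 3 carry the same background but the lowest and the highest level of most members. IFITM2 and IFI6 spread least, with a highest library 1.23 and 1.45 times the lowest, and RSAD2 and IFI44 most, at 2.28 and 2.21 times.

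**Figure D3:**
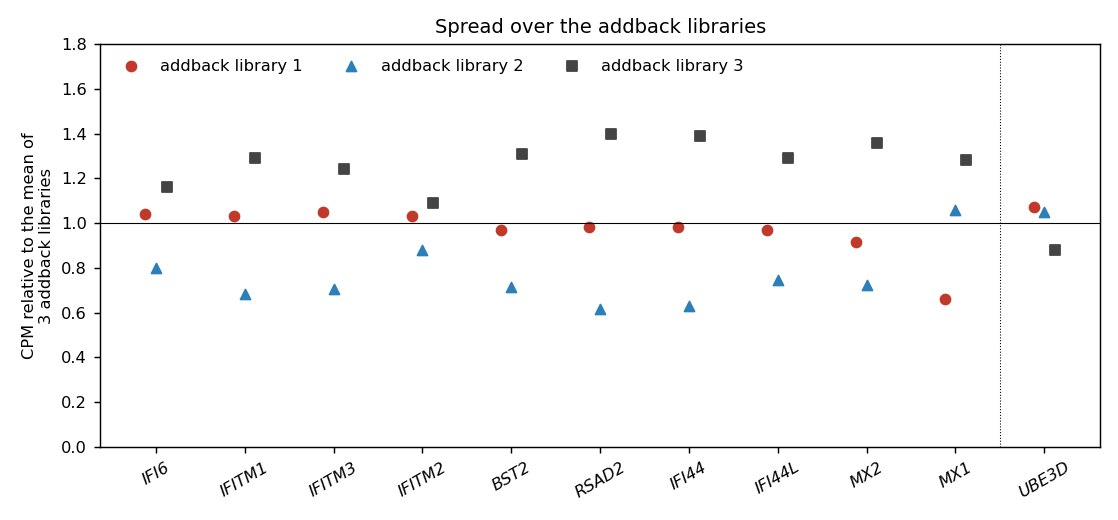
CPM of each gene in addback libraries 1 (red circles), 2 (blue triangles) and 3 (grey squares), divided by the mean of the 3, with UBE3D at the right. Library 3 is highest for all 10 genes, library 2 is lowest for all but MX1, and for UBE3D library 3 is lowest.

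In addback against KO, edgeR called all 10 members higher (adjusted p under 0.05), but 49.2% of all 21994 tested genes were called higher too (7.69% lower, 56.9% in either direction), and since the members were picked on this contrast nothing is read from their count. The members' median log2 fold was 6.68, against 0.45 for all tested genes. By fold over KO, IFI44L ranked 31 and IFI44 187 of 21994 genes, followed by MX2 at 1261, RSAD2 at 2185 and IFITM1 at 2220. BST2 ranked 3079, IFI6 3261, IFITM3 5281, MX1 6097 and IFITM2 8833, so many other genes had larger folds over KO. In addback against WT, which uses the same addback libraries, 9 members were called higher, all but MX1, where 4.64% of all genes were called higher and 9.17% in either direction. The members' median there was 4.36, against 0.01 for all tested genes. Ranked by this fold among the 21994 genes, RSAD2, IFI6 and IFITM1 stood at 5, 6 and 7, BST2 at 11, IFI44L at 12, IFI44 at 17, IFITM3 at 22, MX2 at 30, IFITM2 at 200 and MX1 at 668. Estimated background was 0.216% to 5.27% of the addback counts in 8 members and 14.2% in MX2. With it subtracted from all libraries, the folds over WT were 5.52 for IFI6, 8.46 for RSAD2, 6.79 for IFI44L, 5.26 for MX2 and 1.24 for MX1.

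**Figure D4:**
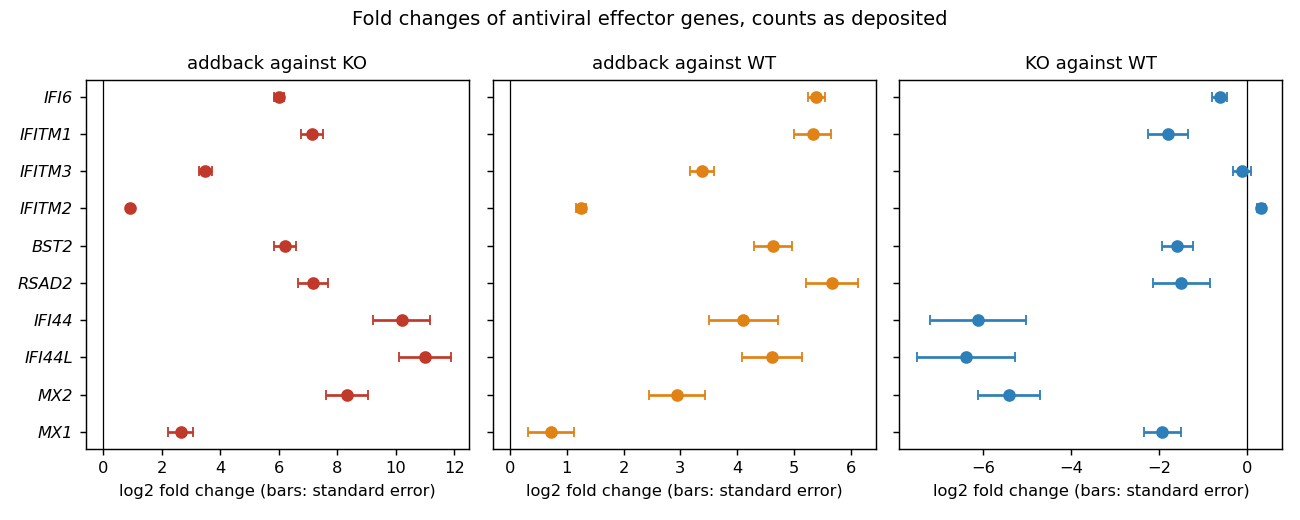
Log2 fold change of each gene with its standard error (bars) in addback against KO, addback against WT and KO against WT, from the counts as deposited. All 10 genes lie above 0 in both addback panels, and in KO against WT IFITM2 alone lies above 0.

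KO cells compared with WT cells ask how the genes stand without UBE3D, and this comparison was not itself used to pick them. It shares its KO libraries with addback against KO, which was known at the choice. Its p-values are therefore not fully free of that choice. By the counts as deposited, edgeR called 7 members lower in KO and 1 higher, where 51.7% of all genes were called lower and 10.1% higher (61.8% in either direction), so calls were common among all genes as well. The median log2 fold of the members was -1.70, against -0.46 for all tested genes. The largest falls were those of IFI44L (-6.39 ± 1.12, edgeR adjusted p = 0.00196), IFI44 (-6.11 ± 1.09, edgeR adjusted p = 0.00209) and MX2 (-5.41 ± 0.70, edgeR adjusted p = 0.000894). Without WT library 3 the folds of IFI44L and IFI44 were -5.43 and -5.01, and that of IFI44L was -7.68 without KO library 2 and -5.68 without KO library 3. MX1 (-1.94 ± 0.42, edgeR adjusted p = 0.00410), IFITM1 (-1.81 ± 0.45, edgeR adjusted p = 0.00770) and BST2 (-1.59 ± 0.36, edgeR adjusted p = 0.00529) fell as well. IFI6 fell by less (-0.63 ± 0.17, edgeR adjusted p = 0.0107), a call lost with TMM factors over all genes (-0.31, edgeR adjusted p = 0.156). IFITM2 rose in KO (0.31 ± 0.09, edgeR adjusted p = 0.0149), a call lost without KO library 1 (edgeR adjusted p = 0.0512). RSAD2 did not pass the test (-1.50 ± 0.64, edgeR adjusted p = 0.0696; -0.90 without WT library 3), though it passed with DESeq2 (adjusted p = 0.0305), with replicate number as a block (edgeR adjusted p = 0.0146), and without addback library 2 or 3 or WT library 1 (edgeR adjusted p = 0.0433, 0.0406 and 0.0219). IFITM3 did not pass either (-0.12 ± 0.20, edgeR adjusted p = 0.629), and its fold changed sign to 0.22 with TMM factors over all genes and to 0.13 with DESeq2.

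Most of these falls stood beside a large share of estimated background in WT. That estimate equalled 97.7% of the summed WT counts of MX2, 91.0% of those of IFI44, 90.8% of IFI44L and 85.9% of RSAD2, and 57.9%, 48.3% and 26.8% of those of BST2, MX1 and IFITM1. It was 15.9%, 10.2% and 8.27% for IFITM3, IFITM2 and IFI6, and 0 in KO libraries. In single WT libraries the estimate passed the count itself, at 160% of IFI44 and 153% of IFI44L in library 2 and at 120% and 148% of MX2 in libraries 1 and 3, so for these genes it is too high in some libraries. With the estimate subtracted, 36.2% of all tested genes were called and so were 2 of the 10 members: IFI6 lower in KO (-0.59 ± 0.18, edgeR adjusted p = 0.0383) and IFITM2 higher (0.38 ± 0.08, edgeR adjusted p = 0.0101). The folds of IFI44L, IFI44 and MX2 then were -4.27 ± 1.78, -4.05 ± 1.79 and -2.97 ± 1.52 (edgeR adjusted p = 0.0939, 0.110 and 0.160). IFITM1 had -1.44 ± 0.51 (edgeR adjusted p = 0.0568), MX1 -0.97 ± 0.53 (edgeR adjusted p = 0.185) and BST2 -0.37 ± 0.57 (edgeR adjusted p = 0.646). RSAD2 changed sign to 1.22 ± 0.94 (edgeR adjusted p = 0.349).

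**Figure D5:**
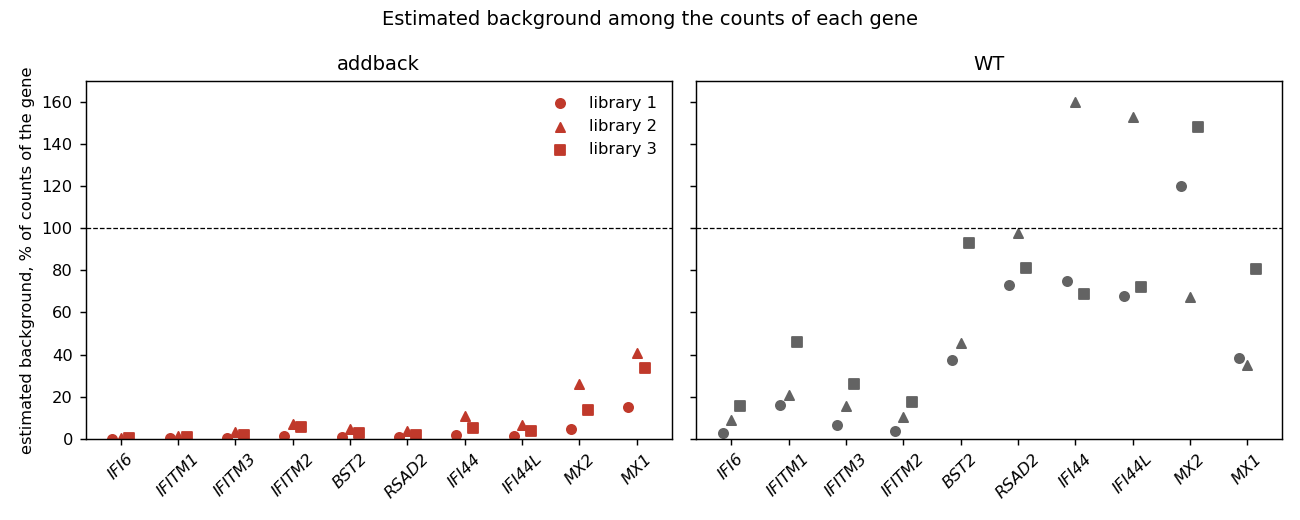
Estimated background as a percentage of the counts of each gene in addback libraries (left) and WT libraries (right), with the symbols marking libraries 1 to 3 and a dashed line at 100%. Addback values stay at or under 40.8%, while in WT the values of MX2, IFI44, IFI44L and RSAD2 lie at 67.5% or above in every library.

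Genes of the wider pathway were taken from lists. Of 29 other antiviral effectors tested, 28 were called higher over KO and 21 over WT (medians 2.55 and 1.32), where 49.2% and 4.64% of all tested genes were. The gene not called over KO, named here after its values were seen, was SERINC5, which makes virions less infectious, at 31.8 ± 1.69, 28.7 ± 0.915 and 29.3 ± 2.55 CPM in addback, KO and WT cells. The highest folds over KO were those of XAF1, a partner of apoptosis inhibitors (8.15 ± 0.93), TRIM22, a ubiquitin ligase (7.56 ± 0.74), the guanylate-binding GTPase GBP1 (6.60 ± 0.78) and SAMD9L, a restriction factor of poxviruses (6.35 ± 0.75). Their folds over WT were 3.43 ± 0.69, 3.76 ± 0.56, 0.58 ± 0.58 and 0.40 ± 0.56. The background estimate equalled 172% of the WT counts of XAF1, 74.2% of TRIM22, 47.1% of GBP1 and 107% of SAMD9L. Of their addback counts it was 17.0%, 5.57%, 32.2% and 79.3%, and its part in these folds was not tested.

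Of 27 interferon-stimulated genes of other families, 27 were called higher over KO and 24 over WT (medians 3.33 and 2.45). Of all tested genes, 49.2% and 4.64% were. With the replicate number as a block, 26 were called higher over WT, where 1368 of 21994 genes were. The oligoadenylate synthetases OAS1 and OAS2, which switch on RNase L, had folds of 10.65 ± 0.72 and 9.89 ± 0.75 over KO and 4.27 ± 0.43 and 4.66 ± 0.49 over WT. OASL, their relative without that activity, had 7.83 ± 0.72 over KO and 3.26 ± 0.54 over WT. IFIT2, which binds viral RNA, had 8.44 ± 0.35 over KO and 6.74 ± 0.31 over WT.

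Of 19 receptors and signalling genes, 12 were called higher in addback against KO and 1 lower, where 49.2% and 7.69% of all genes were. In addback against WT 8 were called higher, where 4.64% of all genes were. With the replicate number as a block, 11 were called higher and 2 lower there, where 1368 and 1305 of 21994 genes were. IRF7, which drives interferon genes, had 132 ± 17.1 CPM in addback, 11.3 ± 1.83 in KO and 14.5 ± 2.91 in WT cells. IRF9 had 107 ± 6.99, 16.9 ± 0.697 and 18.8 ± 2.68 CPM in addback, KO and WT cells. SOCS1, a feedback inhibitor of JAK kinases, had 4.45 ± 0.436, 0.743 ± 0.0813 and 1.30 ± 0.846 CPM in addback, KO and WT cells. The gene called lower in addback against KO, named after its values were seen, was the receptor chain IFNAR1. It had 91.3 ± 2.92 CPM in addback, 106 ± 0.660 in KO and 96.5 ± 0.872 in WT cells.

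The interferon genes themselves were all higher in addback than in KO, while few were set apart between addback and WT. All 21 were called higher in addback against KO, where 49.2% of all tested genes were. In addback against WT edgeR without a block called none, where 4.64% of all tested genes were called higher. There 0 of 21 had an unadjusted p under 0.05, and DESeq2 called 0. With the replicate number as a block, since same-numbered addback and WT libraries deviate together, 1368 of 21994 genes were called higher over WT. Of the 21 interferon genes, 4 had an unadjusted p under 0.05 and 1 was called higher. That was IFNB1, interferon beta, with 1.28, 2.40 and 2.92 CPM in addback, 0 counts in KO and 0.439, 0.546 and 1.51 CPM in WT libraries (1.52 ± 0.39 with the block, edgeR adjusted p = 0.0492, and 1.41 ± 0.66 without it). The estimated background of IFNB1 was 66.5% of its counts in addback and 178% in WT, and its part in this call was not tested. The other 3 were the type III interferons IFNL1, IFNL2 and IFNL3, which are close paralogs whose reads the counting could have split, with folds of 1.43 ± 0.45, 1.30 ± 0.44 and 1.21 ± 0.46 over WT with the block (edgeR adjusted p = 0.0780, 0.0981 and 0.146). Of the 21 genes, 5 were higher in addback than in WT in 3 of 3 pairs. They were these 4, named after their values were seen, and IFNA2 (0.34 ± 0.32 with the block). The share of all tested genes that did so is not given here. The 21 interferon genes together summed to 28.5 to 90.2 CPM in addback, 0.409 to 0.474 in KO and 20.1 to 84.4 in WT libraries, and 12 of the 21 had 0 counts in all KO libraries. Over the 21 genes, estimated background ran from 21.1% (IFNL1) to 206% (IFNK) of the addback counts. Of the WT counts it was 36.1% (IFNL3) to 178% (IFNB1), so for some genes the estimate passed the counts themselves. For the 4 named next it was 34.2% to 48.6% in addback and 37.6% to 60.8% in WT, and its part in the list was not tested. Of the 12 blood and immune cell markers, 11 were called higher in addback against KO, where 49.2% of all tested genes were. In addback against WT edgeR called none, with 0 at an unadjusted p under 0.05 and 0 by DESeq2. With the block 1 of 12 had an unadjusted p under 0.05 and 0 were called. The 4 interferon genes with the highest fold over KO were IFNA6, IFNA2, IFNA14 and IFNA17. They had 4.28 ± 2.62, 4.28 ± 2.86, 3.26 ± 1.90 and 3.02 ± 1.89 CPM in addback and 3.73 ± 2.64, 3.37 ± 2.38, 3.85 ± 2.25 and 2.49 ± 1.96 in WT cells, with 0 counts in KO cells. The IFNA genes are near-identical copies, so their counts may be split between them.

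In KO against WT, 20 of the 29 other effectors, 15 of the 27 genes of other families and 21 of the 21 interferon genes were called lower, where 51.7% of all tested genes were. Their medians were -0.56, -0.64 and -7.89, against -0.46 for all genes. Among the 19 receptors and signalling genes 4 were called lower and 1 higher (10.1% of all genes were called higher). The part of the background in these counts was not tested.

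The genes whose levels over the 9 libraries were most like the members' mean, by Pearson's r of log2(CPM + 0.5), were DDX58 (0.9969), HERC6 (0.9956), IFI35 (0.9938), SAMD9 (0.9936) and ZC3HAV1 (0.9934). DDX58 had 197 ± 39.0 CPM in addback, 8.19 ± 0.606 in KO and 22.6 ± 8.53 in WT cells. ZC3HAV1 had a much flatter profile, at 171 ± 10.9, 86.0 ± 2.83 and 99.9 ± 2.83 CPM in addback, KO and WT cells. The members' own r with their mean ran from 0.852 for MX1 to 0.995 for BST2. Libraries of a group share their condition, so these values over 9 libraries are a description only.

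Of the 10 genes next to members that are on none of the lists, 9 passed the filter. This leaves out the listed neighbours CMPK2, BISPR and IFITM5. Their log2 folds in addback against WT were 4.40 ± 0.23, 4.86 ± 0.51 and 0.06 ± 0.76. The neighbours TMPRSS2, FAM3B, B4GALNT4, PLVAP, MVB12A, ADGRL4, PTGFR, FGR and FAM76A had log2 folds between -0.86 and 0.67 in addback against WT. EdgeR called 0 of these 9 there, with 0 at an unadjusted p under 0.05 and 0 by DESeq2. In addback against KO it called 8 of the 9 higher, where 49.2% of all tested genes were. In KO against WT it called 8 of the 9 lower, where 51.7% of all tested genes were. The part of background in these calls was not tested. PLVAP, next to BST2 and normally a gene of vessel walls, had 54, 197 and 188 counts in addback, 2, 0 and 1 in KO and 29, 332 and 85 in WT libraries. FAM76A, next to IFI6, stood at 18.1 ± 1.04, 17.9 ± 0.487 and 18.4 ± 2.54 CPM in addback, KO and WT cells.

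The authors also deposited tables of regions downstream of genes, where reads past the usual 3′ end are counted. The region after IFI6 (chromosome 1, 27656062-27666061, 10000 bases) had a log2 fold of 4.85 ± 0.41 in addback against KO in the authors' deposited table, where 34.1% of 2396 regions were called. The region after BST2 (chromosome 19, 17377349-17402939, 25591 bases, up to the edge of PLVAP) had 4.93 ± 0.54 in the authors' deposited table. These ranked 3 and 2 of the 2396 regions by fold in the authors' deposited table, whose median fold was 0.00. The fold of the gene itself in the authors' deposited table was 5.75 ± 0.16 for IFI6 and 5.94 ± 0.34 for BST2. In KO against WT the authors' deposited table gave -0.57 ± 0.62 for the IFI6 region (authors' adjusted p = 0.493) and -2.48 ± 0.54 for the BST2 region (authors' adjusted p = 2.47e-05), where 49.8% of 2541 regions were called. The regions after IFITM3 and IFITM1 were nearly empty in the authors' deposited tables, with base means of 0.352 and 0.218. Region counts per library were not used here, so the regions carry no test beyond the authors' own.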

How the data were processed

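Poly(A) RNA was sequenced from 9 libraries of HEK293 cells, 3 each of addback, KO and WT. Per the submitters' processing notes, reads were handled on hg38 with STAR 2.5.2b and cutadapt 1.8.1, and DESeq2 is listed too. Which program counted the reads, on what annotation and strand, is not given in the sources used here. Per gene and library, the deposited table holds whole-number counts, with a gene length in bases (unit: other). The authors' deposited comparison tables hold base means (unit: signal), log2 fold changes with standard errors, test statistics (unit: score) and p-values, and whether their folds were shrunken is not stated.

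Column names marked KO.U were taken as addback, since the authors' deposited tables name that group as KO with UBE3D. Of 26485 symbols, GENCODE v29 holds 23900 as written and 25 under another name. Background was estimated from 561 tissue-restricted genes, as their median count per kilobase of coding sequence times a gene's coding length. CPM and tests use TMM factors from 7482 low-background genes (estimated background at most 10% of the mean, coding sequence at least 10% of exon length).

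Counts of 21994 genes passing filterByExpr were fitted with edgeR 4.0.16 (R 4.3.3), in 1 quasi-likelihood fit over all libraries with genotype as its term. A gene was called at a Benjamini-Hochberg adjusted p under 0.05 over all tested genes. All 10 members passed the filter. The precision is that of 3 libraries a group and total counts of 23088295 to 37508780. Alternatives were other scaling factors, DESeq2 1.42.0, no filter, subtracted background, a replicate block and leaving out each library.

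Pairing by the number in the sample titles was examined. Deviations of same-numbered addback and WT libraries correlated at 0.89, 0.60 and 0.74 over all tested genes, so these were taken as paired. Over the low-background genes the correlations were lower, at 0.57, 0.29 and 0.63. Library 1 had the least estimated background in both groups, and the part of background in these correlations was not tested. The fit without a block is still the one described here. The block is given beside it where it changed a member's call, or a list's count of calls in addback against WT. In both comparisons with KO the correlations were -0.05 to 0.02 over all tested genes and 0.01 to 0.19 over low-background genes. No library was a copy of another, with replicates apart by a chi-square of 1.81 to 39.3 for each degree of freedom.

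The members, the gene lists and the tests were chosen with earlier results of these data known. The other genes named are UBE3D, the members' neighbours in the genome, the 4 tested genes of each list with the largest absolute fold in addback against KO (for the marker and relative lists only the counts and a few names are given), and the 5 whose levels were most like the members' mean. A gene that this rule names is not reported here. In simulated data, changed genes were recovered less often among all genes than among genes with little background, so a gene with much background that was not called may still differ.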

Additional observations from a re-analysis of the deposited data

How the results depend on the processing

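The members were picked with their addback level known, so for both addback comparisons the tally below describes the fits and is no test. Over the 10 members and 16 alternatives, 160 of 160 values in addback against WT kept their direction and their side of the threshold, as did 159 of 160 in addback against KO. The exception there was MX1 with 2 times the estimated background subtracted, an alternative chosen after seeing the data (log2 fold 1.36 ± 1.37, not called). In KO against WT 134 of 160 did so. There 14 lost the call, 6 gained it and 11 changed sign, 5 of these 11 being among those whose call changed. Subtracting the background gave 2 member calls in KO against WT in place of 8. Subtracting 2 times the background gave 3, all higher in KO (IFITM2, MX2 and RSAD2), of which IFITM2 had that call and direction without subtraction. Signs changed for IFITM3 (0.22 with TMM over all genes, 0.13 with DESeq2, 0.05 with the background subtracted and 0.28 with 2 times of it) and for RSAD2 (1.22 with the background subtracted and 8.10 with 2 times of it). With 2 times the background subtracted MX1 (0.36), MX2 (4.74), BST2 (1.69), IFI44 (3.67) and IFI44L (3.40) changed sign as well. That subtraction takes most WT counts of these genes away, so these values are not sizes.

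Over all genes, KO against WT had 13589 calls, 7268 with the background subtracted and 5140 with 2 times of it. Addback against KO had 12507, 5015 and 3474. Addback against WT had 2016 calls and 566 with TMM over all genes. The share of calls that were higher was 16.3% in KO against WT (39.2% with TMM over all genes, 35.1% with DESeq2), 86.5% in addback against KO (63.6% with TMM over all genes, 63.1% with DESeq2, 74.3% with upper quartile factors) and 50.6% in addback against WT (66.3% with TMM over all genes). TMM over all genes moved the median of all genes to -0.12 in KO against WT and 0.14 in addback against KO. Leaving out 1 library gave 11271 to 14633 calls in KO against WT (7 to 9 members), 9703 to 13414 in addback against KO (10 members each time) and 1207 to 1948 in addback against WT (9 members each time), the 1207 being without addback library 2. With the replicate block there were 14715, 13842 and 2673 calls, with 9, 10 and 9 members, and in addback against WT the block changed no member's call. With 3 libraries a group, KO counts of 4 and 5 limit the folds of IFI44L and IFI44, and the background estimate limits what can be said of WT levels of MX2, IFI44, IFI44L and RSAD2.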
